A study of Mus musculus with 12 samples.

Results

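Ubiquitin-conjugating enzymes, called E2 enzymes, and ubiquitin-specific proteases, called USPs, were followed through a block of transcription in mouse leukemia cells. The members were the genes whose symbol begins with Ube2, or with Usp and a digit, and that reached at least 1 TPM in at least 2 of the 12 libraries. TPM is the length-corrected share of a gene among all transcripts of a library. Ube2c, Usp18 and pseudogene symbols were set aside by the rule. It gave 29 Ube2 and 41 Usp members, 70 of the 24589 genes of the table. A further 7 Ube2 and 14 Usp symbols stayed below the limit, of which 3 and 8 were listed at 0 in every library. Nearest below the limit were Usp17lc, Usp6nl, Usp27x and Ube2w, whose second-highest values were 0.80, 0.80, 0.82 and 0.94 TPM. Nearest above it were Usp35, Usp2, Usp54 and Usp53, with second-highest values of 1.11, 1.68, 1.94 and 2.10 TPM. Members were chosen by symbol, and Ube2cbp, counted here with Ube2, is not an E2 enzyme by function.

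The cells were NRAS/AE9a leukemic cells, an acute myeloid leukemia line whose name gives the oncogenes NRAS and AE9a. All groups shared that background and a medium with the growth factors SCF, IL-3 and IL-6 and the selection drugs G418 and puromycin. The 6 groups were wild-type (WT) cells and Tet2-null (KO) cells, each after 0, 4 or 8 h of 5 µg/ml actinomycin D, a drug that stops transcription by binding DNA. Each group had 2 libraries. The labels name 1 line and do not say whether the libraries of a group were separate cultures, so the p-values measure the spread between libraries, which may be technical. Loss of Tet2 and other differences between the WT and the KO line cannot be told apart.

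Ubiquitin is passed from an E1 activating enzyme to an E2 enzyme, which joins it to a target protein together with an E3 ligase. The E2 enzyme often sets which lysine links the next ubiquitin of a chain, and a few E2 enzymes carry relatives of ubiquitin such as SUMO, NEDD8 and ISG15 instead. USPs form the largest family of deubiquitinases, cysteine proteases that cut ubiquitin from proteins or trim its chains. Both families act in the cell cycle, DNA repair and receptor turnover, all of which are active in growing leukemia cells.

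All 10 myeloid progenitor markers examined, among them Kit, Cd34 and Mpo, reached 1 TPM. T and B cell markers summed to at most 0.5 TPM in any library, with Cd3d and Cd3g at 0 throughout. The number of genes at 1 TPM or more ranged from 9093 to 10827 over the libraries, and the sequencing depth behind the TPM is unknown. Tet2 mRNA remained in the KO cells, at 10.2 and 10.2 TPM against 13.1 and 16.0 TPM in WT at 0 h, so the gene total checks the genotype only weakly. Because TPM are shares and no RNA standard is named in the labels, every change below is relative to the other transcripts of a library.

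At 0 h the E2 family was the more abundant of the 2. The 29 Ube2 members summed to 1918 and 2211 TPM in the WT libraries and to 2195 and 2192 TPM in the KO libraries. The 41 Usp members summed to 985 and 1158 TPM in WT and to 1134 and 1093 TPM in KO. The WT and KO sums overlapped in both families. A typical E2 transcript was also the more abundant, with a family median of 44.6 and 49.2 TPM in the WT libraries against 17.6 and 20.6 TPM for the USPs. Ube2s, which extends ubiquitin chains for the anaphase-promoting complex of mitosis, alone made up 15.1% and 17.4% of the Ube2 sum in WT at 0 h. A lower sum can come from fewer cells of a type or from a smaller share of these transcripts in each cell, and bulk libraries cannot tell these apart.

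Actinomycin D lowered the share of both families, and the USPs lost more of theirs. In WT cells the Ube2 sum was 1562 and 1487 TPM at 4 h and 986 and 1068 TPM at 8 h. The Usp sum was 461 and 444 TPM at 4 h and 225 and 257 TPM at 8 h. In KO cells the Ube2 sum was 1801 and 1826 TPM at 4 h and 1501 and 1473 TPM at 8 h, and the Usp sum was 567 and 560 TPM at 4 h and 331 and 327 TPM at 8 h. Within each genotype the libraries of the 3 times did not overlap in either sum. The median WT member kept 64.6% of its 0 h TPM at 4 h and 35.4% at 8 h among the E2 genes. For the USP genes these medians were 34.8% and 21.6%. In KO cells the medians were 79.1% and 44.1% for Ube2, and 39.6% and 26.0% for Usp. The Usp sums and medians include members that met the level limit at 0 h only, named below.

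**Figure D1:**
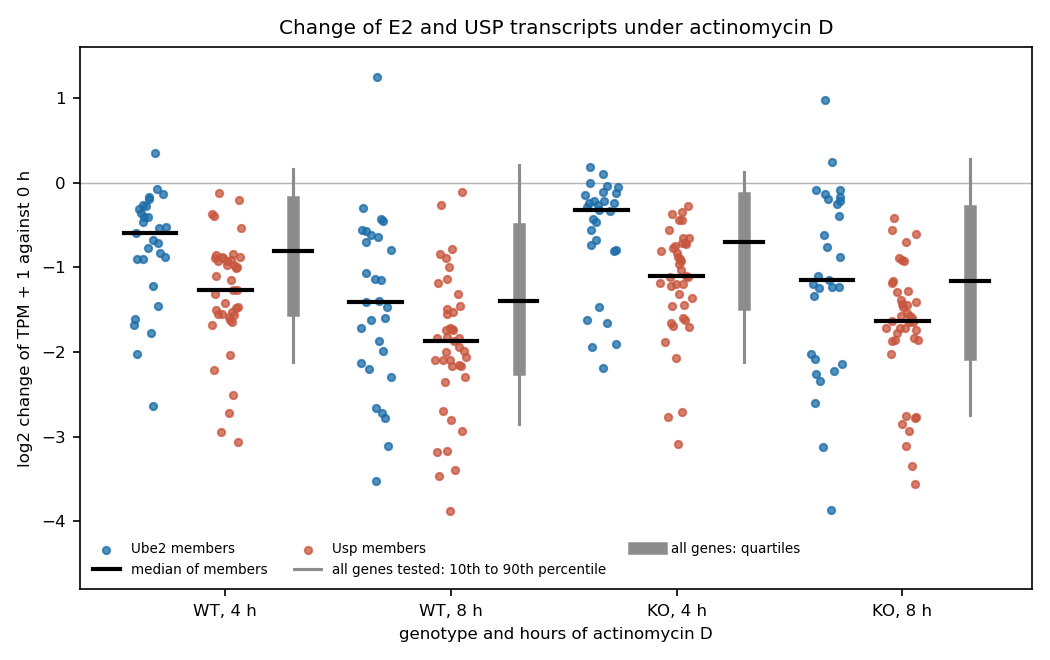
Change of each Ube2 member (blue) and Usp member (red) against 0 h on the log2(TPM + 1) scale, by genotype and hours, with family medians as black bars. Grey bars give the quartiles and the 10th to 90th percentiles of all 11152 genes tested. In WT at 4 h the Ube2 median of -0.59 lies above the all-gene median of -0.81 and the Usp median of -1.26 lies below it.

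Each gene was tested with limma, a linear model with a spread shared across genes, on log2(TPM + 1) over all 11152 genes that met the same level limit. The log2(TPM + 1) scale understates the change of low genes, and a gene passed at a Benjamini-Hochberg adjusted p under 0.05. At 4 h in WT, 25 of 29 Ube2 members (86.2%) and 38 of 41 Usp members (92.7%) were lower and none was higher, against a background of 71.0% of all genes lower and 6.77% higher. At 8 h in WT, 28 Ube2 and 39 Usp members were lower and 1 Ube2 member was higher (background 80.2% lower and 8.48% higher). At 4 h in KO, 18 Ube2 members (62.1%) and 40 Usp members (97.6%) were lower (background 68.0% lower and 4.88% higher). At 8 h in KO, 23 Ube2 and 40 Usp members were lower and 1 Ube2 member was higher (background 75.4% lower and 9.54% higher). Usp2, Usp42, Usp53 and Usp54 reached 1 TPM in the 0 h libraries only, and Usp17ld in the 2 KO libraries of 0 h only, so for these 5 a loss from 0 h follows from the level limit and supports nothing. Without them, 34 of 36 Usp members (94.4%) were lower at 4 h and 35 (97.2%) at 8 h in WT, and 35 at each time in KO. The E2 counts at 4 h thus lay above the background share in WT and below it in KO, while the Usp counts lay above it at each time in each genotype.

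Most genes lost share after the drug, so the members were also read against the median gene. The all-gene median log2 change was -0.81 at 4 h and -1.40 at 8 h in WT, and -0.70 and -1.16 in KO. Below it lay 11 of 29 Ube2 members but 36 of 41 Usp members at 4 h in WT, and 16 and 32 at 8 h. In KO cells the counts were 9 and 33 at 4 h, and 14 and 34 at 8 h. With a trend on transcript length removed, 23 Usp members lay below the median at 4 h in each genotype. Against the median of a table with no level limit, 20 Ube2 members lay below it at 4 h in WT and 14 in KO. The Usp median minus the Ube2 median was -0.67 at 4 h in WT, with an SD of 0.051 between replicate estimates, and -0.46 at 8 h (SD 0.097). In KO cells it was -0.78 (SD 0.039) and -0.49 (SD 0.15). The Usp counts and gaps here, and those after rescaling, include the members that met the level limit at 0 h only, whose loss supports nothing. Without them the median over 36 Usp members was -1.21 at 4 h and -1.97 at 8 h in WT, and -1.03 and -1.64 in KO. The Ube2 medians were -0.59 and -1.42 in WT, and -0.33 and -1.15 in KO. The gaps are descriptions of chosen genes and carry no test.

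The direction of the counts depends on the scale on which the libraries are compared. Median-ratio scaling, which holds the middle gene constant, moved the all-gene medians to 0.0063 and -0.073 in WT and to 0.049 and -0.035 in KO. After it, the E2 split in WT turned to 17 higher and 6 lower at 4 h, and the Usp split was 2 higher and 22 lower (background 36.5% higher and 35.2% lower). At 8 h in WT the E2 split was 13 higher and 10 lower and the Usp split 4 higher and 30 lower (background 37.7% and 41.1%). In KO at 4 h, 19 E2 members were higher and 6 lower, and 7 Usp members were higher and 19 lower (background 37.1% and 34.5%). In KO at 8 h, 13 E2 members were higher and 9 lower, and 4 Usp members were higher and 26 lower (background 38.7% and 40.7%). Under median-ratio scaling more E2 members were higher than lower at each time, whereas more Usp members were lower on both scales.

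**Figure D2:**
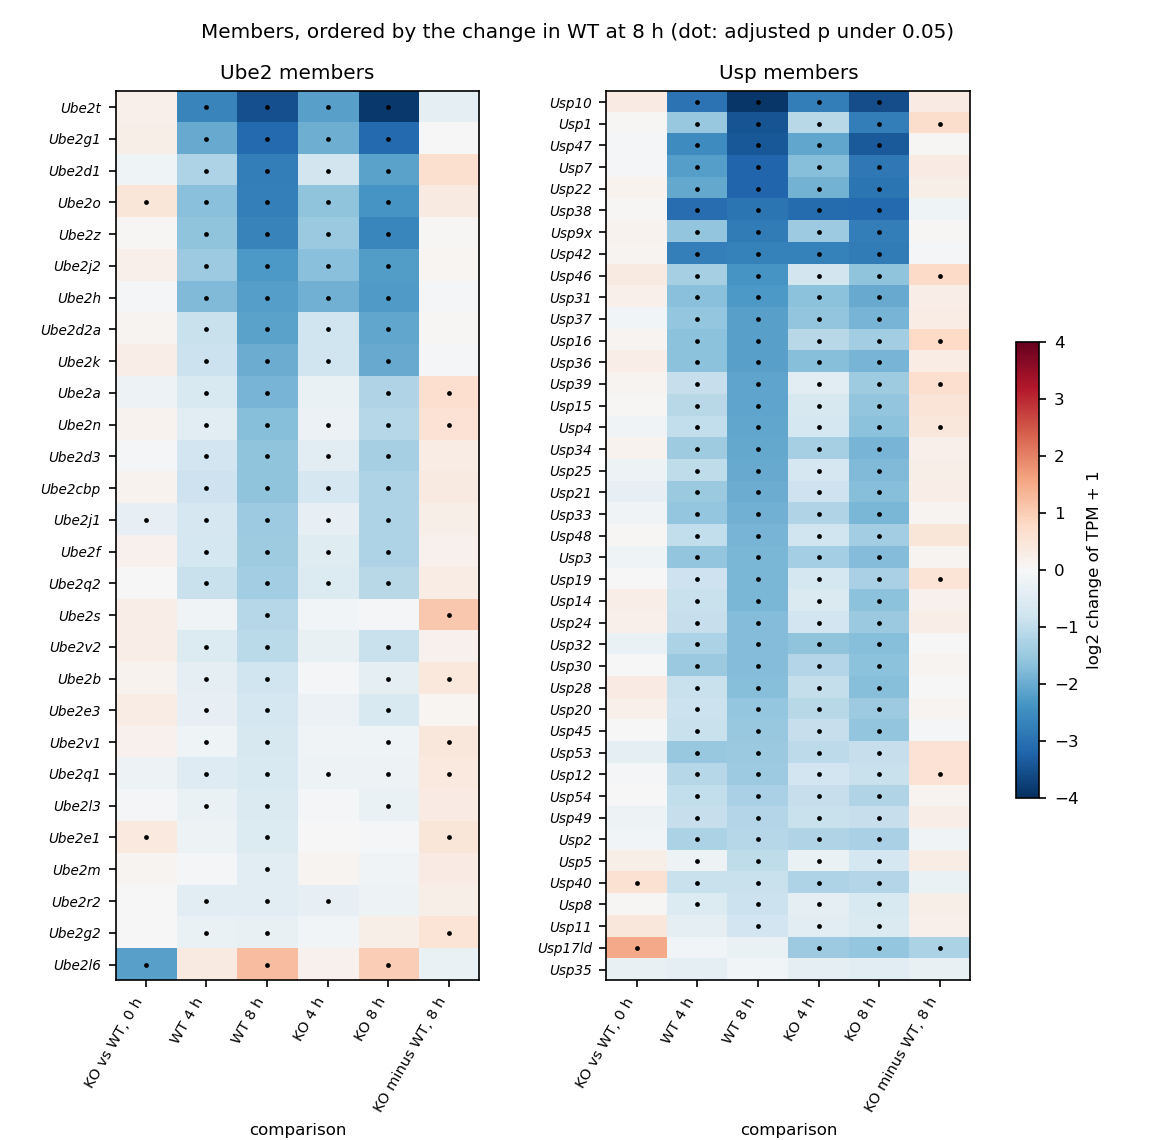
Log2 change of the members in 6 comparisons, ordered by the change in WT at 8 h, with a dot where the adjusted p was under 0.05 on the scale of deposited TPM. Ube2l6 is the reddest E2 gene at 8 h in both genotypes, and Usp10, Usp1 and Usp47 head the Usp members.

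The broadly acting E2 enzymes of the Ube2d and Ube2e groups, which work with many E3 ligases, differed among themselves. Of 5 members, 4 were lower at 4 h and 5 at 8 h in WT (background 71.0% and 80.2% lower). Ube2d1 had 29.0 and 35.1 TPM at 0 h in WT, then 13.97 and 12.2 after 4 h and 3.17 and 4.52 after 8 h. In KO it had 30.6 and 26.3 TPM at 0 h, then 18.2 and 15.3 after 4 h and 5.25 and 6.10 after 8 h. In both genotypes each later time lay below the earlier one in both libraries, and the WT change at 8 h was -2.78 ± 0.16 (SE, limma adjusted p = 3.51e-09). The close relatives Ube2d2a and Ube2d3 changed by -2.13 ± 0.09 and -1.62 ± 0.08 at 8 h in WT. Ube2d3, with 195 and 209 TPM at 0 h in WT, was the most abundant of the group. Ube2e1 was far steadier at -0.56 ± 0.10 (limma adjusted p = 0.000217), as was Ube2e3 at -0.70 ± 0.11.

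Ube2n, the E2 enzyme that builds Lys63-linked chains, and its inactive partners Ube2v1 and Ube2v2 were all lower at 4 h and at 8 h in WT (background 71.0% and 80.2% lower). Ube2n had 44.9 and 50.7 TPM at 0 h in WT, then 36.3 and 32.5 after 4 h and 13.2 and 14.5 after 8 h. Ube2v1 had 151 and 165 TPM at 0 h, then 142 and 139 after 4 h and 97.6 and 105 after 8 h. The catalytic member thus lost more of its share, with a WT change at 8 h of -1.72 ± 0.09 against -0.64 ± 0.07 for Ube2v1 and -1.07 ± 0.15 for Ube2v2. The Rad6 pair, which ubiquitinates PCNA and histone H2B, also split. Ube2a changed by -1.87 ± 0.14 and Ube2b by -0.80 ± 0.08 at 8 h in WT, a difference of -1.075 between near-identical proteins.

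Ube2t and Ube2s, the members tied to repair of DNA crosslinks and to mitosis, differed in depth of loss. Ube2t, the E2 enzyme of the Fanconi anemia pathway, had 17.5 and 18.1 TPM in WT at 0 h, then 2.62 and 1.51 after 4 h and 1.31 and 0.16 after 8 h. In KO it had 21.5 and 19.7 TPM at 0 h, then 4.33 and 3.22 after 4 h and 0.86 and 0.17 after 8 h. On the log2(TPM + 1) scale it had the deepest WT loss of the E2 genes at 8 h, -3.52 ± 0.30 (limma adjusted p = 1.59e-07). The 8 h libraries of the 2 genotypes overlapped. Ube2s had 290 and 385 TPM at 0 h in WT, then 306 and 300 after 4 h and 158 and 142 after 8 h. Its WT libraries at 4 h fell within the range at 0 h and those at 8 h lay below every earlier one.

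E2 enzymes that build Lys48-linked chains or serve the endoplasmic reticulum spanned nearly the whole range. All 6 were lower at 4 h and at 8 h in WT, where 71.0% and 80.2% of all genes were. Ube2g1, which extends Lys48-linked chains, had 22.9 and 25.8 TPM in WT at 0 h, then 5.58 and 4.84 after 4 h and 1.78 and 2.09 after 8 h. Its relative Ube2g2, an E2 enzyme of the disposal of misfolded proteins from the endoplasmic reticulum, had 44.6 and 49.2 TPM at 0 h, then 37.3 and 39.6 after 4 h and 43.2 and 33.3 after 8 h. Ube2r2, a partner of cullin ligases, had 35.6 and 39.9 TPM at 0 h, then 28.2 and 28.0 after 4 h and 26.3 and 29.3 after 8 h. Ube2g1 was nearly gone at 8 h while the other two had lost little. The WT changes at 8 h were -3.11 ± 0.13 for Ube2g1 (limma adjusted p = 3.24e-10), -0.30 ± 0.11 for Ube2g2 (0.0273) and -0.43 ± 0.10 for Ube2r2 (0.00114). On the median-ratio scale Ube2g2 and Ube2r2 were higher, by 1.35 and 1.21, and the Ube2g2 call was lost in 5 other alternatives, among them housekeeping scaling (-0.012, adjusted p = 0.932) and the fits without WT replicate 2 of 0 h (-0.23, 0.147) or of 8 h (-0.11, 0.330). Of the membrane-anchored pair, Ube2j1 changed by -1.47 ± 0.11 and Ube2j2 by -2.29 ± 0.18.

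Of the other ubiquitin E2 genes, 6 of 6 were lower at both times in WT, where 71.0% and 80.2% of all genes were. In KO 5 were lower at 4 h and 6 at 8 h (background 68.0% and 75.4% lower). Ube2o, a large enzyme with E2 and E3 activity known for remodelling the proteome of red cell precursors, had 9.60 and 11.4 TPM in WT at 0 h, then 2.50 and 2.67 after 4 h and 0.83 and 0.66 after 8 h. Its KO libraries had 14.7 and 15.4 TPM at 0 h, then 4.17 and 4.28 after 4 h and 2.54 and 1.81 after 8 h. KO lay above WT at each time, and the WT change at 8 h was -2.72 ± 0.15 (limma adjusted p = 2.32e-09). Ube2z and Ube2h changed by -2.66 ± 0.14 and -2.21 ± 0.16, and Ube2l3, which serves HECT and RBR ligases, by only -0.57 ± 0.10.

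Ube2m, which passes the ubiquitin-like protein NEDD8 on to its targets and was among the steadiest E2 transcripts, had 130 and 160 TPM in WT at 0 h, then 145 and 129 after 4 h and 95.9 and 115 after 8 h. It did not pass at 4 h (-0.08 ± 0.11, limma adjusted p = 0.530) and was lower at 8 h (-0.46 ± 0.11, 0.00138). Ube2f, the other NEDD8 carrier, changed by -1.42 ± 0.10 at 8 h.

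Ube2l6, the E2 enzyme for the interferon-induced modifier ISG15, went the other way. In WT it had 26.8 and 38.0 TPM at 0 h, then 44.1 and 38.2 after 4 h and 74.0 and 79.8 after 8 h. In KO it had 7.35 and 5.50 TPM at 0 h, then 7.50 and 7.23 after 4 h and 11.6 and 15.5 after 8 h. Both genotypes were highest at 8 h, and no KO library reached any WT library. The log2 change at 8 h was 1.24 ± 0.17 in WT (limma adjusted p = 1.96e-05) and 0.97 ± 0.17 in KO (0.000191), and the rise held on both other scales in WT. Among the 70 members it was the one called higher at 8 h on deposited TPM.

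**Figure D3:**
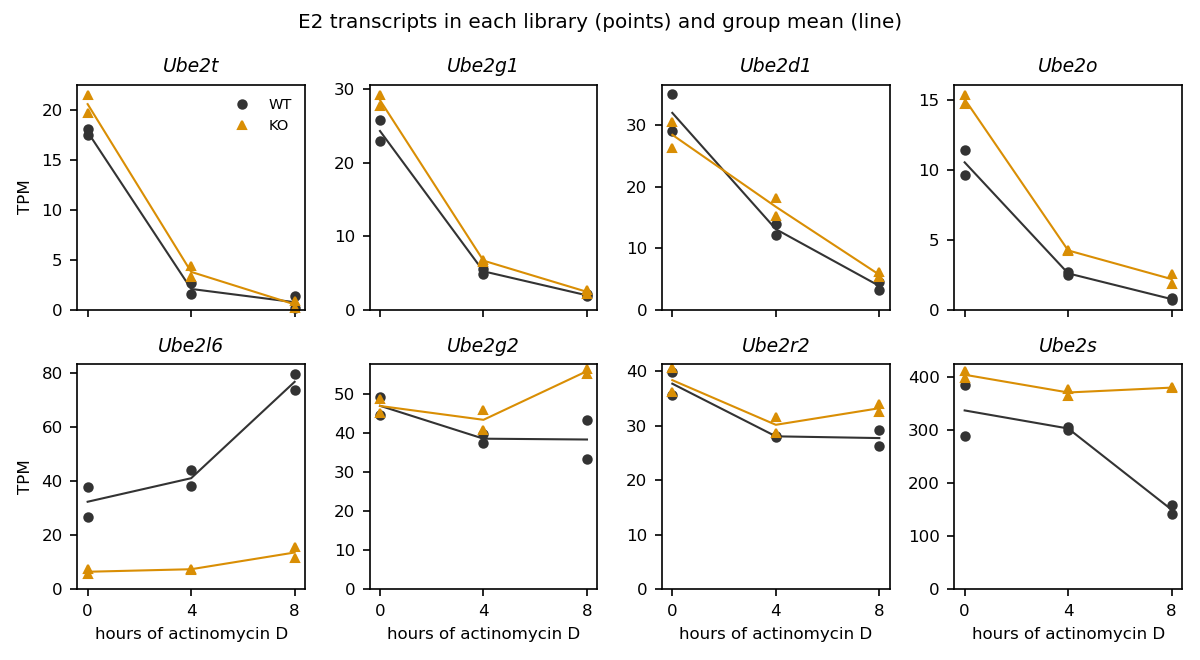
TPM of 8 E2 genes in each library against hours of actinomycin D, with WT as black circles, KO as orange triangles and lines through the group means. Ube2t, Ube2g1, Ube2d1 and Ube2o approach 0 in both genotypes, Ube2l6 climbs, and Ube2s parts between the genotypes at 8 h (158 and 142 TPM in WT against 379 and 381 TPM in KO).

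Among the USPs, the 3 that are switched on by the WD-repeat protein Wdr48 were lower at both times in both genotypes. In these comparisons 68.0% to 80.2% of all genes were lower. Usp1, which removes ubiquitin from PCNA and FANCD2, had 80.6 and 95.6 TPM in WT at 0 h, then 33.4 and 26.5 after 4 h and 6.37 and 7.79 after 8 h. In KO it had 89.9 and 90.6 TPM at 0 h, then 39.4 and 42.9 after 4 h and 12.3 and 12.8 after 8 h. At 4 and 8 h both KO libraries lay above both WT libraries, whereas at 0 h they overlapped. Usp1 was the most abundant USP in WT at 0 h and changed by -3.46 ± 0.13 at 8 h (limma adjusted p = 1.08e-10). Usp12 and Usp46, paralogs of one another, changed by -1.46 ± 0.13 and -2.36 ± 0.13. Wdr48 itself had 32.6 and 37.5 TPM in WT at 0 h and 2.98 and 3.62 TPM at 8 h, a change of -3.07 ± 0.13 (limma adjusted p = 2.6e-10).

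The USPs known to act on p53 or its ligase Mdm2 included the deepest loss of a member on the log2(TPM + 1) scale. Usp10 had 24.8 and 31.2 TPM in WT at 0 h, then 3.18 and 2.33 after 4 h and 0.93 and 0.99 after 8 h. In KO it had 37.9 and 32.8 TPM at 0 h, then 4.32 and 4.35 after 4 h and 2.40 and 1.77 after 8 h. On the log2(TPM + 1) scale its change of -3.88 ± 0.16 at 8 h in WT (limma adjusted p = 2.82e-10) was the deepest of all 70 members. This rank depends on the scale. With 0.1 added to the TPM in place of 1, the deepest Ube2 change was -4.89 and the deepest Usp change -4.72. With a trend on transcript length removed they were -4.05 and -3.64. Of its WT mean at 0 h, Usp10 kept 3.43% at 8 h and Ube2cbp 2.03%. Usp7, which deubiquitinates Mdm2 and p53, had 60.3 and 71.8 TPM in WT at 0 h, then 13.6 and 13.2 after 4 h and 6.11 and 6.60 after 8 h. It changed by -3.18 ± 0.10 (limma adjusted p = 4.89e-11). Usp42 had 6.16 and 9.49 TPM at 0 h, then 0.20 and 0.44 after 4 h and 0.24 and 0.45 after 8 h, so its 4 h and 8 h libraries overlapped. Usp2 reached at most 1.86 TPM in any library and changed by -1.14 at 8 h in WT. The losses of Usp42 and Usp2 carry no weight, since both met the level limit at 0 h only.

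Histone-directed USPs were all lower at both times in both genotypes, 5 of 5, where 68.0% to 80.2% of all genes were. Usp22, the deubiquitinase of the SAGA coactivator complex, had 31.1 and 33.6 TPM in WT at 0 h and 2.59 and 2.79 TPM at 8 h, a change of -3.17 ± 0.13. Usp16 changed by -2.17 ± 0.15, Usp21 by -1.99 ± 0.19 and Usp3 by -1.84 ± 0.13.

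Usp14, which sits on the proteasome, and Usp5, which recycles free ubiquitin chains, were lower at both times as well, with Usp5 among the steadiest USPs. Usp5 had 73.9 and 85.4 TPM in WT at 0 h, then 68.7 and 68.7 after 4 h and 38.5 and 39.8 after 8 h. Its KO values were 95.9 and 89.9 TPM at 0 h, then 79.4 and 73.5 after 4 h and 56.1 and 57.3 after 8 h. The times did not overlap in either genotype. The WT change at 8 h was -1.003 ± 0.08 (limma adjusted p = 1.1e-07) for Usp5 and -1.82 ± 0.10 for Usp14, and on the median-ratio scale Usp5 was higher by 0.66.

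Of the 6 USPs of membranes and endosomes, 6 were lower at both times in both genotypes, where 68.0% to 80.2% of all genes were. Usp8, which sorts receptors at endosomes, had 45.2 and 56.8 TPM in WT at 0 h, then 35.7 and 33.7 after 4 h and 25.5 and 30.2 after 8 h. Its WT change at 8 h was -0.85 ± 0.11 (limma adjusted p = 1.31e-05), and on the median-ratio scale it was higher by 0.80. Usp12 also turned there, to 0.13 (adjusted p = 0.206). Usp30 of the mitochondrial outer membrane changed by -1.73 ± 0.14 and Usp19 of the endoplasmic reticulum by -1.84 ± 0.09.

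Usp47 and Usp38 differed in timing. Usp47, a protease tied to base excision repair, had 40.9 and 46.2 TPM in WT at 0 h, then 7.13 and 6.53 after 4 h and 2.66 and 3.92 after 8 h, a change of -3.39 ± 0.14 at 8 h (limma adjusted p = 2.53e-10). Usp38 had 20.1 and 23.0 TPM at 0 h, then 1.97 and 1.45 after 4 h and 2.06 and 1.84 after 8 h. In KO it had 23.1 and 21.3 TPM at 0 h, then 1.77 and 1.67 after 4 h and 1.80 and 1.56 after 8 h. Usp47 was lower at 8 h than at 4 h in both libraries, whereas the 4 h and 8 h libraries of Usp38 overlapped in both genotypes. Its change was -3.06 ± 0.14 at 4 h and -2.93 ± 0.14 at 8 h in WT. Usp38 and Usp42 were chosen for this description after their values were seen. Usp35, which peaked at 1.28 TPM, passed in no comparison.

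**Figure D4:**
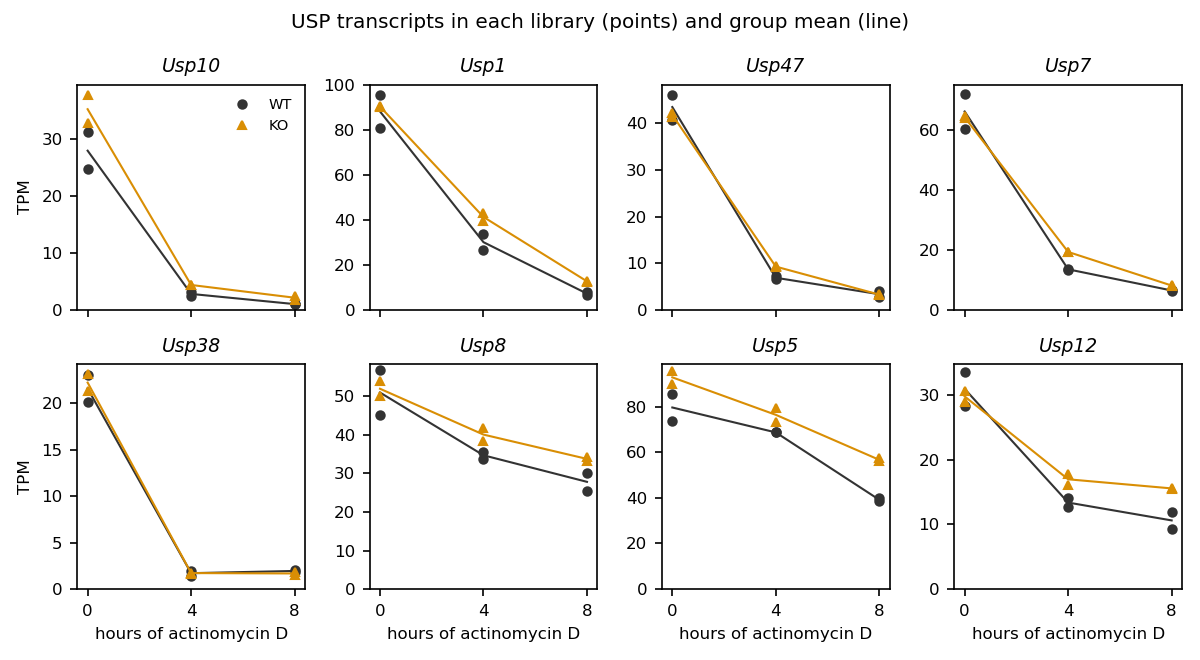
TPM of 8 USP genes in each library against hours of actinomycin D, drawn as for the E2 genes. Usp10, Usp47 and Usp7 lose most of their level by 4 h and lie lower still at 8 h, Usp38 overlaps between 4 and 8 h, and Usp8, Usp5 and Usp12 retain the most.

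Closely related genes ranged from nearly equal changes to widely different ones. Of 16 pairs of relatives, 14 had both members. The widest gap in WT at 8 h was between Ube2g1 and Ube2g2, a log2 difference of -2.81, and it was -3.37 in KO. Ube2d1 and Ube2d3 differed by -1.16, and Usp9x and Usp24 by -1.06. At the other end, Usp4 and Usp15 differed by 0.0042 and Ube2e1 and Ube2e3 by 0.14. These are descriptions, and differences between genes were not tested.

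The families also differ in transcript structure, as read from GENCODE M21 on GRCm38 by 1 transcript a gene. The median transcript was 2906 nt for Ube2 and 4726 nt for Usp members, against 2920 nt for all genes tested with a 3′ UTR in that annotation, and the coding parts were 549 and 2937 nt. In bands chosen after the values were seen, transcripts of 2000 to 4000 nt had a median WT change at 4 h of -0.60 over 14 Ube2 members, -1.27 over 9 Usp members and -0.87 over all genes. At 4000 nt and above the medians at 4 h were -0.87 over 5 Ube2 members, -1.27 over 31 Usp members and -1.22 over all genes, and at 8 h they were -1.99, -1.84 and -1.79, so the order of the families turned. Under 2000 nt the medians at 4 h were -0.38 over 10 Ube2 members and -0.27 over all genes. Among genes of at least 30 TPM at 0 h in WT, 20 Ube2 members had a median of -0.41 and 13 Usp members one of -1.01 at 4 h, against -0.53 for all such genes. Between 10 and 30 TPM the order was the reverse, -1.73 over 6 Ube2 and -1.48 over 15 Usp members. With a smooth trend on transcript length removed from every library, the gap between the family medians shrank from -0.67 to -0.44 at 4 h and from -0.46 to -0.18 at 8 h in WT. Length and level thus moved with the family difference, and their part in it was not tested.

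The 3′ UTRs were searched on the transcript strand for TTATTTATT, the core of an AU-rich element of unstable mRNAs, because turnover was measured. It lay in 2 of 29 Ube2 members (6.9%), 6 of 41 Usp members (14.6%) and 7.3% of all genes. Below are 30-base windows of 3′ UTRs, in capitals the match, shown for Usp12 and Usp16 of the genotype comparison that follows and for Ube2k and Usp32 as further holders. The windows lie in GRCm38 at chr5:146737004-146737033 on the minus strand for Usp12, chr16:87483339-87483368 on the plus strand for Usp16, chr5:65596590-65596619 on the plus strand for Ube2k and chr11:84985206-84985235 on the minus strand for Usp32.
Usp12: tctttttttccTTATTTATTttacttaaac
Usp16: aaaaatcatgtTTATTTATTtaaatacagg
Ube2k: caagtttttctTTATTTATTttaagtagct
Usp32: aagtataaatgTTATTTATTtctggcagca
The Usp members whose 3′ UTR held a match included Usp12, one of the steadiest, and Usp31, which changed by -2.29 ± 0.14 at 8 h in WT. The Pumilio-type motif TGTANATA lay in 12 Ube2 members (41.4%), 12 Usp members (29.3%) and 24.3% of all genes. A match is a string in the annotated UTR and nothing more.

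Before the drug, few members differed between genotypes. At 0 h, 2 Ube2 members were lower and 2 higher in KO. Of the Usp members 2, 1 of them Usp17ld, were higher and none lower. The background was 14.3% higher and 11.5% lower, so these shares lay below it on deposited TPM. With a trend on transcript length removed, 13.8% of Ube2 and 14.6% of Usp members were higher, where 1611 of all 11068 genes were. Ube2l6 had the largest difference, -2.16 ± 0.17 (SE, n = 2 against 2, limma adjusted p = 2.97e-06), from the 26.8 and 38.0 TPM in WT and 7.35 and 5.50 TPM in KO given above. Usp18, the protease that removes ISG15 and no member here, had 42.0 and 43.0 TPM in WT and 11.9 and 12.4 TPM in KO at 0 h. Ube2j1 had 46.8 and 55.3 TPM in WT and 41.2 and 38.7 TPM in KO, Ube2o had 9.60 and 11.4 TPM in WT and 14.7 and 15.4 TPM in KO, and Ube2e1 had 90.3 and 98.6 TPM in WT and 128 and 122 TPM in KO. None of these overlapped between genotypes, and their differences were -0.34 ± 0.11 (limma adjusted p = 0.0401), 0.48 ± 0.15 (0.0316) and 0.40 ± 0.10 (0.0131). Each of the last 3 calls was lost without some single library, up to an adjusted p of 0.219 for Ube2j1 without WT 0 h replicate 2, 0.178 for Ube2o and 0.0918 for Ube2e1 without WT 0 h replicate 1.

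The 2 Usp members called at 0 h were Usp17ld and Usp40, named after their values were seen. Usp40 had 5.86 and 6.58 TPM in WT and 9.72 and 10.5 TPM in KO (0.62 ± 0.16, limma adjusted p = 0.0135). Usp17ld had 0.14 and 0.45 TPM in WT and 2.61 and 2.78 TPM in KO. It met the level limit through the KO libraries of 0 h alone, so this difference and those built on it follow from the choice of members and are descriptions. Usp17ld also belongs to a cluster of near-identical copies, so its reads may be split and its value is uncertain. Erythroid markers moved with the genotype: the list of 4 genes, of which 2 reached 1 TPM, summed to 45.5 to 58.2 TPM in WT and to 293 to 296 TPM in KO at 0 h, nearly all of it Hbb-bt. Their part in the member differences was not tested.

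At 4 h no member passed the test of a genotype difference in its change, the KO change minus the WT change, in limma (background 0.350% in either direction). An unadjusted p under 0.05 was reached by 5 Ube2 and 10 Usp members. The share of all genes at that unadjusted threshold was not counted. These numbers thus have no background beside them and support nothing. The smallest p in each family belonged to Ube2d3 (0.34 ± 0.11, limma adjusted p = 0.185) and Usp7 (0.52 ± 0.14, 0.126).

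By 8 h the genotypes had parted for 17 members. The KO change exceeded the WT change for 9 Ube2 members (31.0%) and 7 Usp members (17.1%), and was below it for 0 Ube2 members and 1 Usp member, Usp17ld, against a background of 17.3% above and 2.63% below. The median difference was 0.29 for Ube2, 0.24 for Usp and 0.18 for all genes tested. It was 0.055, 0.049 and -0.020 after median-ratio scaling and -0.0064, 0.013 and -0.043 after scaling to housekeeping genes. The Ube2 share lay above the background and the Usp share near it. Scaling changed these counts: 3 Ube2 and 3 Usp members were above and 0 below after median-ratio scaling (background 8.96% above and 7.88% below), and 1 Ube2 and 2 Usp members above and 1 Usp member below after scaling to housekeeping genes (background 6.62% above and 8.62% below). Ube2s, Usp39 and Usp46 passed on all 3 scales.

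Ube2s had the largest difference in favour of KO. Its KO libraries had 398 and 411 TPM at 0 h, then 365 and 378 after 4 h and 379 and 381 after 8 h, against the 290 and 385, 306 and 300, and 158 and 142 TPM of WT. At 8 h both KO libraries lay above both WT libraries, and within KO the 8 h libraries lay below the 0 h libraries and above the 4 h libraries. The KO change was -0.09 ± 0.10, the WT change -1.15 ± 0.10, and their difference 1.06 ± 0.15 (limma adjusted p = 0.000905). Ube2s passed in each of 22 alternatives, with an adjusted p of at most 0.00846. In the KO libraries at 8 h it made up 25.3% and 25.9% of the Ube2 sum, against 16.0% and 13.3% in WT.

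Ube2n and Ube2v1, which form the Lys63 chain-building pair, were both retained more in KO. Ube2n had 52.7 and 52.9 TPM in KO at 0 h and 24.2 and 22.3 TPM at 8 h, against 13.2 and 14.5 TPM in WT at 8 h. Ube2v1 had 177 and 180 TPM in KO at 0 h and 157 and 158 TPM at 8 h, against 97.6 and 105 TPM in WT. The KO libraries lay above WT at 8 h for both genes. The differences were 0.57 ± 0.13 for Ube2n (limma adjusted p = 0.0117) and 0.46 ± 0.09 for Ube2v1 (0.00578). Each was lost in 1 of 22 alternatives, housekeeping scaling, with adjusted p of 0.0875 and 0.128. Both Rad6 members passed too, Ube2a by 0.68 ± 0.20 (0.0350) and Ube2b by 0.41 ± 0.12 (0.0273), as did Ube2g2 by 0.54 ± 0.16 (0.0341), Ube2e1 by 0.48 ± 0.15 (0.0396) and Ube2q1 by 0.40 ± 0.12. Ube2b and Ube2q1 were lost in 10 and 13 of 22 alternatives. The calls of Ube2a, Ube2g2 and Ube2e1 were lost in 10, 11 and 13, each of them when replicate 2 of WT at 0 h, or any KO library of 0 h, was left out.

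The Wdr48-dependent USPs were called retained more in KO in all 3 cases (background 17.3%). Usp46 had 10.1 and 10.4 TPM in WT and 13.6 and 13.4 TPM in KO at 0 h, 3.47 and 3.51 against 7.87 and 7.64 TPM at 4 h, and 1.09 and 1.30 against 3.37 and 4.20 TPM at 8 h. KO lay above WT at each time, and the gap in fold widened. The difference of the 8 h changes was 0.75 ± 0.18 (limma adjusted p = 0.0135), and it was 0.71 ± 0.18 for Usp1 (0.0157) and 0.57 ± 0.18 for Usp12 (0.0437). The Usp12 call was lost in 16 of 22 alternatives, the Usp1 call in 5 and the Usp46 call in 2. Wdr48, their cofactor, was not among the genes that passed this test.

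Usp39, a splicing factor of the family that lacks protease activity, had 64.3 and 74.0 TPM in WT and 75.9 and 72.7 TPM in KO at 0 h, an overlap. At 8 h it had 14.3 and 16.4 TPM in WT and 25.7 and 28.3 TPM in KO, with no overlap. The difference was 0.67 ± 0.14 (limma adjusted p = 0.00561) and held in each of 22 alternatives. Usp16, a histone H2A deubiquitinase, had 3.94 and 4.96 TPM in WT and 7.76 and 10.5 TPM in KO at 8 h, a difference of 0.78 ± 0.22 (0.0260) that was lost in 8 of 22 alternatives. Usp19 differed by 0.55 ± 0.13 (0.0114), lost in 3 of 22 alternatives, and Usp4 by 0.45 ± 0.15 (0.0480), lost in 16.

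**Figure D5:**
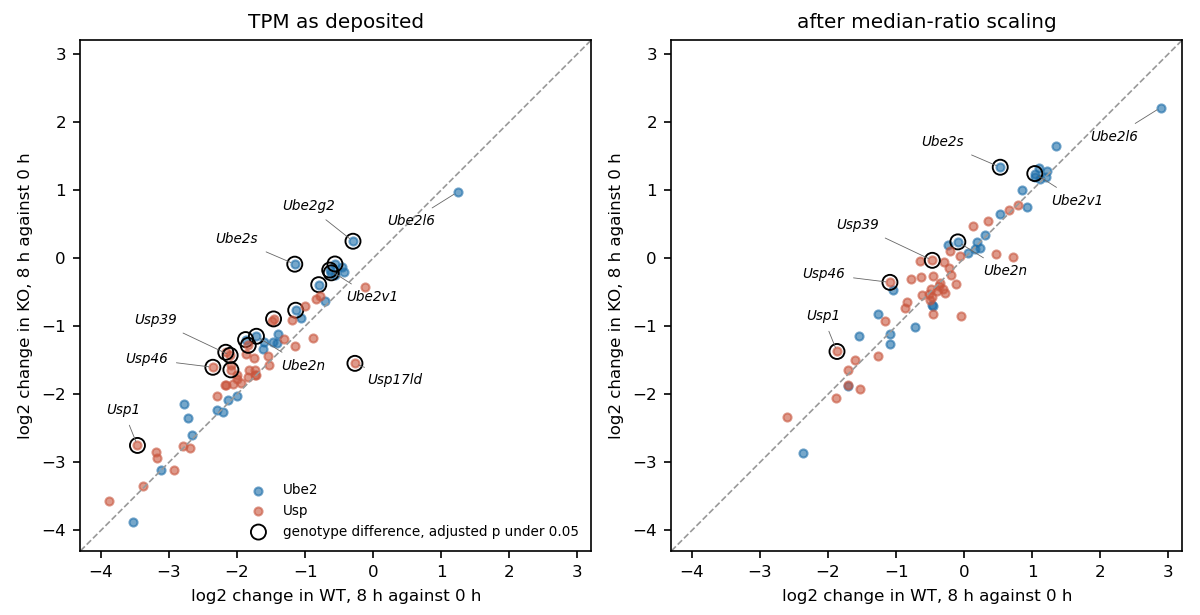
Log2 change at 8 h in KO against that in WT for each member, with TPM as deposited (left) and after median-ratio scaling (right); circles mark members whose genotype difference passed and the dashed line marks equal change. On the left 17 members are circled and on the right 6, with Ube2s farthest above the line among the abundant members.

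The number of members that passed at 8 h also rested on single libraries, and in the fits named next the number of all genes that passed fell too. The number of members fell from 17 without either KO 0 h replicate, WT 0 h replicate 2, WT 8 h replicate 1 or KO 8 h replicate 1. Ube2n, Ube2s, Ube2v1 and Usp39 passed in each fit with 1 library left out. The erythroid markers summed to 121 to 129 TPM in WT and to 815 to 843 TPM in KO at 8 h. The myeloid progenitor markers summed to 1345 to 1456 TPM in WT and to 1869 to 1872 TPM in KO, but went both ways. Ctsg, Cd34, Mpo and Csf3r were higher in both KO libraries than in both WT libraries. Itgam, Spi1, Kit, Cebpa and Ptprc were lower, and Prtn3 overlapped. Ctsg had 302 and 306 TPM in WT and 701 and 726 TPM in KO. Itgam had 516 and 565 TPM in WT and 306 and 295 TPM in KO. A list of stroma and endothelium markers, nearly all of it Pecam1, summed to 57.8 to 72.6 TPM in WT and to 142 to 151 TPM in KO. The part of cell state in the member differences was not tested. The order of the members was otherwise alike in both genotypes: across 29 Ube2 members the 8 h changes of WT and KO had a Pearson r of 0.97, and across 41 Usp members an r of 0.90. These describe genes of the same libraries, which are not independent replicates.

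Other parts of the ubiquitin pathway were read from lists of E1 enzymes, ubiquitin precursors, E2 and USP genes under other names, cofactors and the other deubiquitinase families, 59 of whose 62 genes were tested. In WT 48 (81.4%) were lower and 6 higher at 4 h, where 71.0% of all genes were lower, and 53 (89.8%) lower and 5 higher at 8 h (background 80.2% lower), with a median of -1.63 against -1.40 for all genes. In KO 42 (71.2%) were lower and 5 higher at 4 h (background 68.0% lower), and 50 (84.7%) lower and 5 higher at 8 h (background 75.4% lower). At 0 h 11 (18.6%) were higher and 3 (5.08%) lower in KO (background 14.3% higher and 11.5% lower). Of the deubiquitinases of the OTU class, 12 of 12 were lower at both times in both genotypes, and of 9 E1 genes 9 were lower at 8 h in WT and 7 in KO. With the background at 68.0% to 80.2% lower, these counts are descriptions. Median-ratio scaling changed the split of the 59 genes in WT to 27 higher and 19 lower at 4 h (background 36.5% and 35.2%). At 8 h in WT it was 21 and 23 (background 37.7% and 41.1%). In KO it was 32 and 20 at 4 h (background 37.1% and 34.5%) and 24 and 23 at 8 h (background 38.7% and 40.7%).

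Ubb, a polyubiquitin gene, had 1233 and 1355 TPM in WT at 0 h and 245 and 271 TPM at 8 h. Its libraries did not overlap between the times, and the WT change at 8 h was -2.32 ± 0.07.

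The genotype difference at 8 h was called higher for 14 (23.7%) and lower for 1 of these 59 genes, against a background of 17.3% and 2.63%. It was called higher for 6 (10.2%) and lower for 1 (1.69%) after median-ratio scaling (background 8.96% and 7.88%). After scaling to housekeeping genes it was called higher for 4 and lower for 4, 6.78% each (background 6.62% and 8.62%). On both scales the share called higher thus lay near the background. Of the E1 genes, 6 of 9 were called higher, among them Nae1 of NEDD8 (0.77 ± 0.16, limma adjusted p = 0.00617) and both subunits of the SUMO E1, Sae1 (0.61 ± 0.11, 0.00353) and Uba2 (0.71 ± 0.15, 0.00605). Uba2 had 14.5 and 17.8 TPM in WT and 31.1 and 31.4 TPM in KO at 8 h, from 102 and 116 TPM and 125 and 127 TPM at 0 h. The 1 gene called lower was Ubb (-0.95 ± 0.10, 0.00031), which had 139 and 133 TPM in KO at 8 h.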

How the data were processed

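RNA of NRAS/AE9a cells was sequenced in 12 libraries. The deposited values are TPM per gene, 1 column a library. STAR, RSEM and the mm10 genome are named in the submitters' processing notes, while their versions, the annotation and the strandedness used are not stated in those sources. All columns summed to the total that defines TPM within 0.63, so depth is unknown and no counting interval was possible. Of 24589 genes, 8737 were at 0 in every library and 27 carried date names.

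Log2(TPM + 1) values of 11152 genes were fitted with limma 3.58.1 in R 4.3.3, with 1 mean per group over 12 libraries. The fit used an empirical Bayes spread with a trend, two-sided tests and Benjamini-Hochberg adjustment over all genes tested. The procedure was also run on simulated data. There only a small set of genes changed, in the WT 8 h group, whereas most genes were lower in the data. The simulation thus does not test that case. Members, lists and tests were chosen with earlier results of these data known. Full statistics went to members with a mean of at least 5 TPM: per family the 4 deepest and 3 least changes called in WT at 8 h, the 4 largest each way at 0 h, and up to 6 called genotype differences, or the 3 smallest p. RSEM may split reads among near-identical copies, which several E2 genes have, and such values are uncertain. Transcript structure came from GENCODE M21 (GRCm38), matched by symbol for all 70 members and 99.3% of genes tested. Alternatives were 2 scalings, 2 filters, 2 pseudocounts, no trend, a replicate block, the compared groups alone, removal of a length trend and leaving out each library. A few genes enter the counts and medians but are not reported here by name.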

Additional observations from a re-analysis of the deposited data

Results flagged for a closer look

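The change over 8 h of actinomycin D differed between KO and WT cells, by the test of the difference itself in limma at an adjusted p under 0.05, for 17 members. Values are the KO change minus the WT change on the log2(TPM + 1) scale. Among the E2 genes these included Ube2s (1.06), Ube2a (0.68), Ube2n (0.57), Ube2g2 (0.54), Ube2e1 (0.48), Ube2v1 (0.46), Ube2b (0.41) and Ube2q1 (0.40). Among the USPs they were Usp16 (0.78), Usp46 (0.75), Usp1 (0.71), Usp39 (0.67), Usp12 (0.57), Usp19 (0.55), Usp4 (0.45) and, in the other direction, Usp17ld (-1.28). Usp17ld met the level limit in the KO libraries of 0 h only, so its value follows from the choice of members and supports nothing. Of the 17, median-ratio scaling left 6 past the threshold and housekeeping scaling left 4.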

How the results depend on the processing

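Each count of members and each gap between the family medians was recomputed under 22 alternatives, 12 of them leaving out 1 library. Of 736 recomputed values, 634 stayed within 1.5 times the reported count or within the replicate spread of a gap and 102 did not. Where a value changed, the cause was not tested.

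Median-ratio scaling turned the E2 counts. In WT it gave 17 Ube2 members higher and 6 lower at 4 h and 13 higher and 10 lower at 8 h, with 2 Usp members higher and 22 lower at 4 h and 4 higher at 8 h. In KO it gave 19 Ube2 members higher and 6 lower at 4 h and 13 higher and 9 lower at 8 h, with 7 Usp members higher and 19 lower at 4 h and 4 higher and 26 lower at 8 h. At 0 h, 4 Ube2 members (13.8%) and 4 Usp members (9.76%) were higher in KO, where 1464 of all 11152 genes were. For the genotype difference it gave 1 Usp member higher at 4 h, where 28 of all 11152 genes were. At 8 h it gave 3 Ube2 and 3 Usp members higher and 0 Usp members lower. It moved the gaps between the family medians to -0.74 (WT 4 h), -0.65 (WT 8 h), -0.91 (KO 4 h) and -0.69 (KO 8 h). It reversed the WT change at 8 h of Ube2g2 (1.35), Ube2r2 (1.21), Usp8 (0.80), Usp5 (0.66) and Usp12 (0.13). Housekeeping scaling gave 0 Ube2 members higher, and 5 Ube2 (17.2%) and 5 Usp members (12.2%) lower, in KO at 0 h. There 855 of all 11152 genes were higher and 2337 lower. It gave 2 Usp members with a higher difference at 4 h, where 116 of all genes had one, and 1 Ube2 and 2 Usp members at 8 h.

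At 0 h, 1 Ube2 member was higher with a pseudocount of 0.1 or of 0.5. With no filter, with a pseudocount of 0.1 or without the trend, 1 was lower. With the length trend removed 4 Ube2 members (13.8%) and 6 Usp members (14.6%) were higher, where 1611 of all 11068 genes were. A mean of at least 5 TPM left 0 Usp members higher at 0 h and, like a pseudocount of 0.1, 0 Usp members lower in the 8 h difference. For that difference, limma without the trend and the fit of the compared groups alone each gave 3 Ube2 members higher. Of all 11152 genes, 1570 and 1365 were higher in these fits. With no filter 4 Usp members were higher, where 1658 of 15852 genes were. The fit of the compared groups alone also gave 1 Ube2 member higher in WT at 4 h, 2 in KO at 8 h and 1 Usp member lower in the 4 h difference. The gaps for WT at 4 h, WT at 8 h, KO at 4 h and KO at 8 h were -0.89, -0.72, -1.0 and -0.74 with a pseudocount of 0.1 and -0.75, -0.59, -0.89 and -0.65 with one of 0.5. Members of at least 5 TPM gave -0.79, -0.66 and -0.62 for the first 3, and removal of the length trend -0.44, -0.18 and -0.59.

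With 1 library left out, Ube2 members higher and lower in KO at 0 h numbered 0 to 5 and 1 to 2, and Usp members 1 to 4 and 0 to 1. Ube2 members lower numbered 20 to 25 (WT 4 h), 13 to 19 (KO 4 h) and 20 to 23 (KO 8 h), and those higher 0 to 1 (WT 4 h) and 1 to 2 (KO 8 h). In the genotype difference, 0 to 1 Usp members were lower at 4 h, and 3 to 12 Ube2 and 1 to 10 Usp members were higher at 8 h. The number of all genes that passed also differed between these fits, so the ranges of counts are not particular to the members. The gaps ranged from -0.098 to -0.038 (0 h), -0.68 to -0.61 (WT 4 h), -0.55 to -0.41 (WT 8 h), -0.79 to -0.73 (KO 4 h) and -0.66 to -0.45 (KO 8 h).

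Samples of 1 replicate number did not deviate together (15 pairs of groups, r from -0.08 to 0.05, 0 over 0.1), so the numbers pair nothing. With the replicate number as a block, 8 Ube2 and 5 Usp members were higher and 1 Usp member lower in the 8 h difference, 14 of the 17 members in all, 24 Ube2 members were lower in WT at 4 h, and no other count moved. TPM hide the depth, so the precision of low members such as Usp35, Usp2 and Usp17ld is unknown.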
